A study of Homo sapiens with 2 samples.

Results

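The genes described here encode the core of the phosphoinositide 3-kinase (PI3K) and AKT pathway: the class I catalytic subunits PIK3CA, PIK3CB and PIK3CD, the regulatory subunits PIK3R1, PIK3R2 and PIK3R3, and the kinases AKT1 and AKT2. They were taken by gene symbol from the deposited table, and 6 of the 8 had a row under their own symbol, out of 22411 genes in all. PIK3CA and PIK3R2 are not analysed here. Expression was measured on 2 arrays, 1 of a line of NCI-N87 cells labelled as resistant to T-DM1 and 1 of untreated parental NCI-N87 cells. NCI-N87 is a human gastric carcinoma line that carries extra copies of ERBB2, which encodes HER2, and T-DM1 (trastuzumab emtansine) joins a HER2 antibody to the microtubule poison DM1. The comparison asks how the resistant cells differ from the cells they came from. The labels give no dose, length of selection, passage or number of clones, and do not say whether drug was present at harvest.

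Class I PI3K is a dimer of a catalytic p110 and a regulatory p85-type subunit that is drawn to phosphorylated receptors, among them HER2 partnered with HER3, and to their adaptors. It phosphorylates the membrane lipid PIP2 to PIP3, which brings AKT to the membrane, where PDK1 and the mTORC2 complex phosphorylate it. Active AKT then phosphorylates FOXO transcription factors, the TSC complex that restrains mTORC1, and other substrates. The pathway is controlled mostly by phosphorylation and lipid levels, which RNA arrays do not measure.

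Values are on the deposited log2 scale, and each difference is given as resistant minus parental. A gene was called higher or lower when its difference was at least 1 in size, which is 2-fold, and its higher value reached a floor of 5.79, set at the median over all genes of the brighter array's value. With 1 array per group there are no replicates and no test, so each difference describes these 2 cultures, with a precision limited by the number of arrays. The 5 epithelial markers measured lay far above the floor, between 13.7 and 17.0 on the resistant and between 13.2 and 17.3 on the parental array. Of these, the E-cadherin gene CDH1 was itself called lower, at 13.97 on the resistant and 15.07 on the parental array (-1.10). The 3 measured genes next to ERBB2 lay between 12.8 and 15.4 on the resistant and between 13.0 and 15.5 on the parental array. Of the leukocyte, fibroblast and endothelial markers, 1 of 3, 0 of 3 and 0 of 3 reached the floor. The exception was CD68, which is also made outside leukocytes, at 10.3 on the resistant and 10.6 on the parental array.

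PIK3CB was the only measured core gene past the size rule. It encodes the catalytic subunit p110-beta, which answers to G protein-coupled receptors as well as to receptor tyrosine kinases. PIK3CB was 10.9 on the resistant and 9.55 on the parental array, a difference of 1.34 or 2.54-fold. Among the 11206 genes at or above the floor, 5.63% had a difference as high. Both values lay far above the floor, so the fold does not rest on a dim row. PIK3CD encodes p110-delta, the catalytic subunit best known from leukocytes, and was 4.85 on the resistant and 4.82 on the parental array. Both PIK3CD values lay under the floor, where differences have no order, so the array gives no fold for this subunit.

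The regulatory subunit genes had nearly the same value on both arrays. PIK3R1, which encodes p85-alpha and its shorter forms, was 9.25 on the resistant and 9.07 on the parental array, a difference of 0.18. PIK3R3, which encodes p55-gamma, was 6.98 on the resistant and 7.02 on the parental array, a difference of -0.04. Thus the catalytic gene PIK3CB differed by more than 2-fold, while the measured genes of its regulatory partners differed by at most 1.13-fold.

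The AKT genes also differed little, and in opposite directions. AKT1, the widely expressed isoform linked to growth and survival, was 9.18 on the resistant and 8.94 on the parental array, a difference of 0.23. AKT2, the isoform best known for insulin-regulated glucose uptake, was 7.77 on the resistant and 7.96 on the parental array, a difference of -0.19. Of all genes at or above the floor, 68.5% had a difference at least as large in size as that of AKT1, and 74.9% one as large as that of AKT2.

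**Figure D1:**
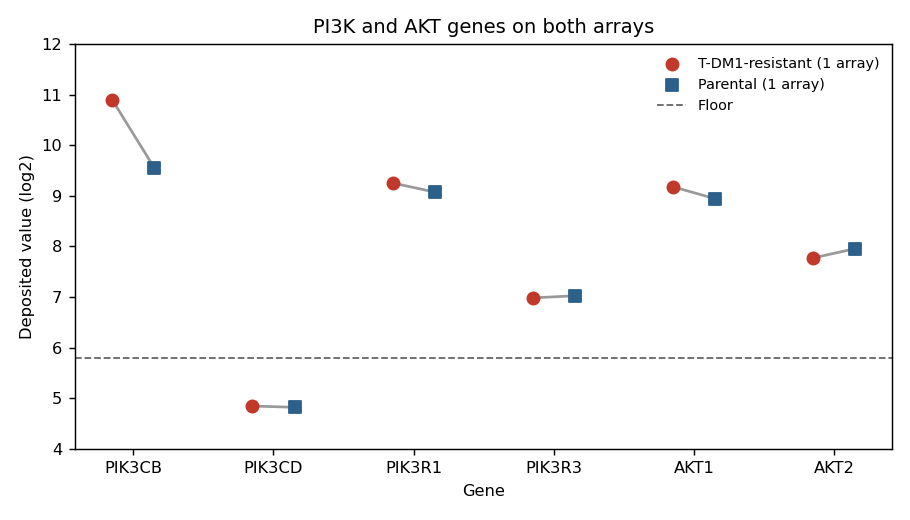
Deposited log2 value (vertical axis) of the 6 measured core genes (horizontal axis) on the T-DM1-resistant array (circles) and the parental array (squares), 1 array each, with the floor of 5.79 as a dashed line. PIK3CB is 10.9 on the resistant and 9.55 on the parental array, PIK3CD lies under the floor on both, and the other pairs nearly coincide; heights are not comparable between genes because each row has its own probes.

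Counted together, 1 of the 6 measured genes was called higher, none lower and 5 neither. Of the 5 at or above the floor, 1 was called. Over all genes the rule called 9.35%, and 18.7% of those at or above the floor, 9.58% higher and 9.12% lower. A count of 1 among 5 is therefore near the background and is no result about the core genes as a set. The median difference of the 6 was 0.10, against 0.03 over all genes. Of the 6, 5 differed by less than 0.25, as did 12386 of all 22411 genes. These 5 include PIK3CD, which lay under the floor on both arrays. The median size of the difference among the 5 genes at or above the floor was 0.19, against 0.41 over all such genes.

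Whole stretches of chromosomes differ between these arrays, so each core gene was set beside the 20 nearest genes at or above the floor on its chromosome, 10 on each side in gene order. PIK3CB, on chromosome 3, had a difference of 1.34 where its neighbours had a median of 0.22 and ranged from -0.51 to 3.42. Of these neighbours 4 were called higher and none lower, and 16 of 20 had a positive difference. PIK3CB less its neighbours' median was 1.12, still past 1, and 2 neighbours lay above it. They were IL20RB (3.42), a cytokine receptor gene, and HMGN2P25 (1.49), annotated as a pseudogene of a multicopy family, whose row may therefore share signal; both were chosen after their values were seen.

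The other core genes lay close to their surroundings, except PIK3CD. AKT1 on chromosome 14 had a difference of 0.23 among neighbours with a median of 0.02, and 17 of its 20 neighbours lay below it. AKT2 on chromosome 19 had -0.19 among neighbours with a median of -0.08. PIK3R1 on chromosome 5 had 0.18 against 0.08, and PIK3R3 on chromosome 1 had -0.04 against 0.07. PIK3CD, also on chromosome 1, stood at 0.03 among neighbours with a median of 0.65, of which 7 were called higher and none lower. Since its own row lay under the floor, that gap of -0.62 cannot be read as a difference of the gene itself.

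**Figure D2:**
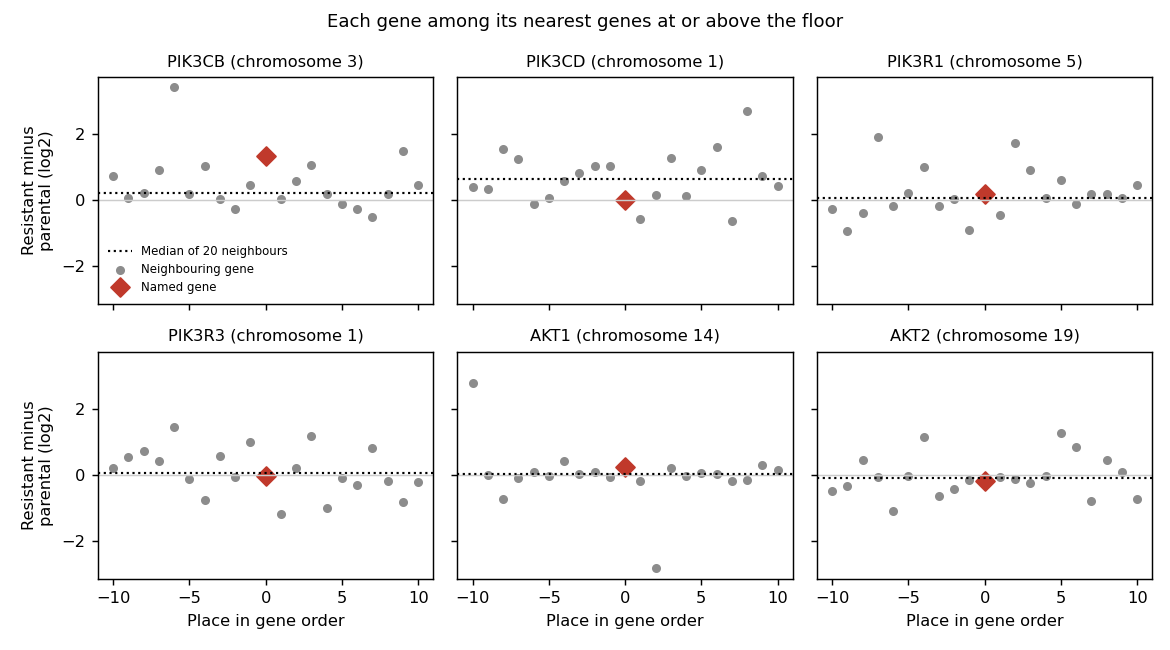
Resistant minus parental difference (log2, vertical axis) of each core gene (diamond) and its 20 nearest genes at or above the floor (dots) against place in gene order; the dotted line is the neighbours' median. PIK3CB stands 1.12 above the median of its neighbours, and PIK3CD lies in a stretch with a median of 0.65.

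The promoters of PIK3CB, of its regulatory partner gene PIK3R1 and of both AKT genes are shown to set the gene that was called beside those that were not. They come from RefSeq on build GRCh38.p14, each from 250 bases before to 50 after the first listed gene start, and all 6 measured genes matched by symbol. Capitals mark matches, on either strand, to the GC box (GGGCGG or CCGCCC), the CCAAT box (CCAAT or ATTGG), the E-box (CACGTG) and the FOXO core motif (GTAAACA or TGTTTAC). Neighbouring GC boxes can share bases, which then form a longer run of capitals.
PIK3CB, chr3:138834879-138835178, minus strand: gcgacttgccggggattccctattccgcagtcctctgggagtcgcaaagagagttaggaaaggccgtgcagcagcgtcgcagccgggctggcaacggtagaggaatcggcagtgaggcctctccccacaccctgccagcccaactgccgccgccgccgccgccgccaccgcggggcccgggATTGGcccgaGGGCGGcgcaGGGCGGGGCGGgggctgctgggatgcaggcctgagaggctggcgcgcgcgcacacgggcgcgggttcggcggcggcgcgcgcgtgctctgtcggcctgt
PIK3R1, chr5:68215506-68215805, plus strand: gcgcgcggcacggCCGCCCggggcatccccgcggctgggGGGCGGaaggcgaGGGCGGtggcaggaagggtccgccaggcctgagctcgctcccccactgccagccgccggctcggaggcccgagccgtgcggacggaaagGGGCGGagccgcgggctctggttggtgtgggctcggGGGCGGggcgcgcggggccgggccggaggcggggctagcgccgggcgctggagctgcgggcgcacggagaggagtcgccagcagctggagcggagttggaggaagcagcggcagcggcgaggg
AKT1, chr14:104795699-104795998, minus strand: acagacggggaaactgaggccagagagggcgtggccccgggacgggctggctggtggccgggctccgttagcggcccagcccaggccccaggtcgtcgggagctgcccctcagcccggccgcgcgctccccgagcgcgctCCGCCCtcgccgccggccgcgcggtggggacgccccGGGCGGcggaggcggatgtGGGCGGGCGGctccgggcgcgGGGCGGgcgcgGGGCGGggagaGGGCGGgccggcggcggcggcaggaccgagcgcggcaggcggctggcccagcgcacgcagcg
AKT2, chr19:40285296-40285595, minus strand: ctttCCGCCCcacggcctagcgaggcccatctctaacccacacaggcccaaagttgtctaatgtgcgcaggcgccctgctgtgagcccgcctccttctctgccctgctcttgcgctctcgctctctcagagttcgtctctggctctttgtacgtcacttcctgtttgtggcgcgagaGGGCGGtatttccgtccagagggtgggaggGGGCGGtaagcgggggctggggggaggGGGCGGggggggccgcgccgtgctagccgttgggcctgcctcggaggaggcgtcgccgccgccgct

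All 4 windows are rich in G and C, from 68% in AKT2 to 83.3% in AKT1, against a median of 58.7% over 35116 RefSeq windows of this length. PIK3CB holds 3 GC boxes, PIK3R1 5, AKT1 7 and AKT2 4, and 45% of all windows hold at least 1. Among these 4 windows the CCAAT box was found in that of PIK3CB alone, once, and in 34.6% of all windows. This holds for the first listed starts only. Windows at other listed starts of PIK3R1 (start 3) and AKT2 (start 2) hold 1 CCAAT box each. None of the 4 holds an E-box, present in 7.26% of all windows, or the FOXO core, present in 3.42%. These are matches of letters, and none of them was tested against the differences.

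The rest of the pathway was described through 10 lists by role. Of their 92 measured genes, 81 lay at or above the floor, and 5 were called higher and 13 lower. That is 22.2% of those 81, against 18.7% of all genes that reached the floor. Their median difference was -0.003, against 0.03 over all genes. By direction, 6.17% of the 81 were called higher and 16.05% lower, against 9.58% and 9.12% over all genes that reached the floor. The lists were chosen with results of these arrays known and share members and chromosome stretches, so this split is a description, and the genes below are given for what they encode.

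Among the other PI3K catalytic genes, the class II gene PIK3C2G and the class III gene PIK3C3 were lower. PIK3C2G, one of the class II enzymes that make 3-phosphoinositides on internal membranes, was 4.27 on the resistant and 9.80 on the parental array. The resistant value lies under the floor, which makes PIK3C2G at least 16.1-fold lower. PIK3C3 encodes VPS34, which makes PI3P for endosomes and autophagy, and was 7.45 on the resistant and 9.06 on the parental array, a difference of -1.61. Its regulatory partner gene PIK3R4, encoding VPS15, went the other way without reaching the rule, at 9.63 on the resistant and 9.04 on the parental array. PIK3C2A was 12.1 on the resistant and 11.2 on the parental array, a difference of 0.94 among neighbours with a median of 1.02. PIK3CG, the catalytic gene of class IB, stayed below the floor, at 4.19 on the resistant and 3.92 on the parental array. Of the 5 genes, 2 were called lower, none higher and 3 neither, with a median of -0.25 that includes PIK3CG. The 2 are 50% of the 4 that reached the floor, against 9.12% called lower over all such genes. So few genes allow no result about the list.

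The promoter of PIK3C2G is shown because this gene had the largest difference in size of the 92, and its window differs in composition from those above. It comes from the single start that RefSeq lists.
PIK3C2G, chr12:18261268-18261567, plus strand: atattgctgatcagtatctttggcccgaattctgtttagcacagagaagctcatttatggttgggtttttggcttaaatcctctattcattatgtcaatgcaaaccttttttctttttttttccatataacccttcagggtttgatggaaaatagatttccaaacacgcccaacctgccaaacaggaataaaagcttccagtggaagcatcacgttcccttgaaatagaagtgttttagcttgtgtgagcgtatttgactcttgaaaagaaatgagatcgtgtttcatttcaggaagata
Only 37.3% of its bases are G or C, and it holds no match to any of the 4 motifs.

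Of 4 measured genes listed as other PI3K regulatory subunits, 2 reached the floor, and 1 of these, PIK3IP1, was called lower. That is 50%, against 9.12% called lower over all such genes. So few genes allow no result about the list. PIK3IP1 encodes a membrane protein that restrains p110, and was 5.57 on the resistant and 6.72 on the parental array. The resistant value lies under the floor, and against the floor PIK3IP1 was at least 1.91-fold lower. PIK3R5 and PIK3R6, regulatory genes of class IB, were below the floor on each array, and the deposited values of PIK3R6 were identical. Among 10 measured receptor adaptors, GAB2, a docking protein that binds p85, was higher, at 7.20 on the resistant and 5.87 on the parental array, a difference of 1.33. None was called lower. GAB2 is 12.5% of the 8 adaptors that reached the floor, against 9.58% called higher over all such genes. IRS1, the insulin receptor substrate, was 8.66 on the resistant and 8.23 on the parental array, and IRS2 stayed below the floor, at 3.26 on the resistant and 3.40 on the parental array. ERBB3, which encodes the HER2 partner HER3 that carries most p85 binding sites of the pair, was 11.4 on the resistant and 11.1 on the parental array.

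Genes that remove phosphates from phosphoinositides were not called in either direction. Of 9 measured, 7 reached the floor, and the median difference of the 9 was 0. Over all genes that reached the floor 18.7% were called, and 7 genes are too few for a result about the list. The largest difference was that of INPP4A, a 4-phosphatase, at 8.63 on the resistant and 7.88 on the parental array (0.75). INPP4B, a related 4-phosphatase, was 8.90 on the resistant and 9.36 on the parental array (-0.46).

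Of the kinases and partners that activate AKT, MTOR was called higher and the other 6 measured genes were not called. MTOR is 16.7% of the 6 in this list that reached the floor, against 9.58% called higher over all such genes. MTOR encodes the kinase of both mTOR complexes and was 10.4 on the resistant and 8.56 on the parental array, a difference of 1.85. Its neighbours on chromosome 1 had a median of 0.66, and MTOR less that median was 1.19. PDPK1, encoding PDK1, was 8.65 on the resistant and 8.67 on the parental array. RICTOR, the scaffold that defines mTORC2, was 10.8 on the resistant and 11.2 on the parental array, a difference of -0.40. SGK2, a kinase related to AKT, was 7.03 on the resistant and 5.45 on the parental array, at least 2.36-fold higher against the floor.

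All 10 phosphatases and inhibitors of AKT reached the floor, and 1 (10%) was called lower and none higher. Over all such genes 9.12% were called lower and 9.58% higher. The 1 called was TRIB2, at 4.37 on the resistant and 7.18 on the parental array, at least 2.61-fold lower against the floor. TRIB2 is a pseudokinase listed here by family: its relative TRIB3 binds and restrains AKT, whereas TRIB2 is known for holding back FOXO3. The phosphatase genes PHLPP1 (-0.61) and PHLPP2 (0.56), which encode enzymes that dephosphorylate AKT, had differences of opposite sign.

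Of 19 measured AKT substrates, 4 were called lower, none higher and 15 neither, with a median of 0.04. The 4 are 22.2% of the 18 that reached the floor. Over all such genes 9.12% were called lower and 9.58% higher. The list was chosen with results of these arrays known, so this is a description and no result about the list. FOXO3, a transcription factor that AKT keeps out of the nucleus, was 7.64 on the resistant and 9.52 on the parental array, a difference of -1.88. CDKN1B, encoding the cell cycle inhibitor p27, was 7.93 on the resistant and 9.34 on the parental array (-1.41). TBC1D4, a Rab regulator of glucose transporter traffic, was 7.32 on the resistant and 8.51 on the parental array (-1.19). FOXO1 was 6.41 on the resistant and 7.51 on the parental array (-1.10). FOXO1 and TBC1D4 lie on chromosome 13 among neighbours with medians of -1.11 and -1.01, and less these medians they were at 0.0035 and -0.18. FOXO3 less its neighbours' median on chromosome 6 was -1.05, and CDKN1B less its own was -1.14. TSC2, the AKT target in the TSC complex, was 8.47 on the resistant and 8.27 on the parental array.

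In the mTORC1 branch, 1 of 12 measured genes was called higher and 1 lower. Each is 9.09% of the 11 that reached the floor, against 9.58% higher and 9.12% lower over all such genes. RHEB, the GTPase that switches on mTORC1, was 10.6 on the resistant and 9.43 on the parental array (1.15), in a stretch of chromosome 7 with a median of 0.64. RPS6, a ribosomal protein phosphorylated downstream of mTORC1, was 7.15 on the resistant and 8.20 on the parental array (-1.06), among neighbours with a median of -1.03. TSC1, whose product stabilises TSC2, was 9.85 on the resistant and 10.8 on the parental array. Its difference of -0.99 falls just short of the rule. Its neighbours had a median of 0.02, and less that median TSC1 was at -1.02.

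FOXO target genes, which AKT activity is known to hold down, held the largest differences after PIK3C2G. Of 15 measured, 4 were called lower, 1 higher and 10 neither, and the median was -0.37. All 15 reached the floor, and the 4 are 26.7% of them, against 9.12% called lower over all such genes, whose median was 0.01. With 15 genes chosen with results of these arrays known, this is a description and no result about the list. SESN3, which encodes the stress protein sestrin 3, was 6.57 on the resistant and 10.9 on the parental array, a difference of -4.28. TXNIP, whose product restrains glucose uptake, was 11.7 on the resistant and 15.1 on the parental array, a difference of -3.35. The neighbours of SESN3 had a median of 0.01 and those of TXNIP one of 0.02. BCL6, a transcriptional repressor gene, was 6.60 on the resistant and 7.84 on the parental array (-1.25). CITED2, a transcriptional coregulator gene, was 9.75 on the resistant and 11.1 on the parental array (-1.33), among neighbours on chromosome 6 with a median of -1.09. KLF6, a zinc finger transcription factor gene, ran against the rest of the called genes, at 11.9 on the resistant and 10.2 on the parental array (1.77). These genes also answer to other factors, and protein or phosphorylation of FOXO was not measured.

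The TXNIP promoter is shown because it holds a FOXO core, in capitals between 2 CCAAT boxes.
TXNIP, chr1:145996530-145996829, minus strand: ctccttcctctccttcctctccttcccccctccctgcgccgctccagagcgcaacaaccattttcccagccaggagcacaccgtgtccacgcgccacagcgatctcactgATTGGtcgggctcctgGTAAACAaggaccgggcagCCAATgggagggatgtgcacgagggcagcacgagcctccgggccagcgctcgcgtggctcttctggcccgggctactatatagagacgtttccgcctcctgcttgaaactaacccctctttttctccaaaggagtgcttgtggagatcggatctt
Of the 13 measured FOXO target genes with a RefSeq window, 3 hold the core in at least 1 window: TXNIP, MXI1 and BCL2L11. This counts genes by any of their windows, whereas the 3.42% given above is a share of single windows. The 2 cannot be compared, and whether the core is more common in this list was not tested. MXI1 (-0.37) and BCL2L11 (0.16) were not called. SESN3 has no match in its window, which says only that these letters are not there.

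**Figure D3:**
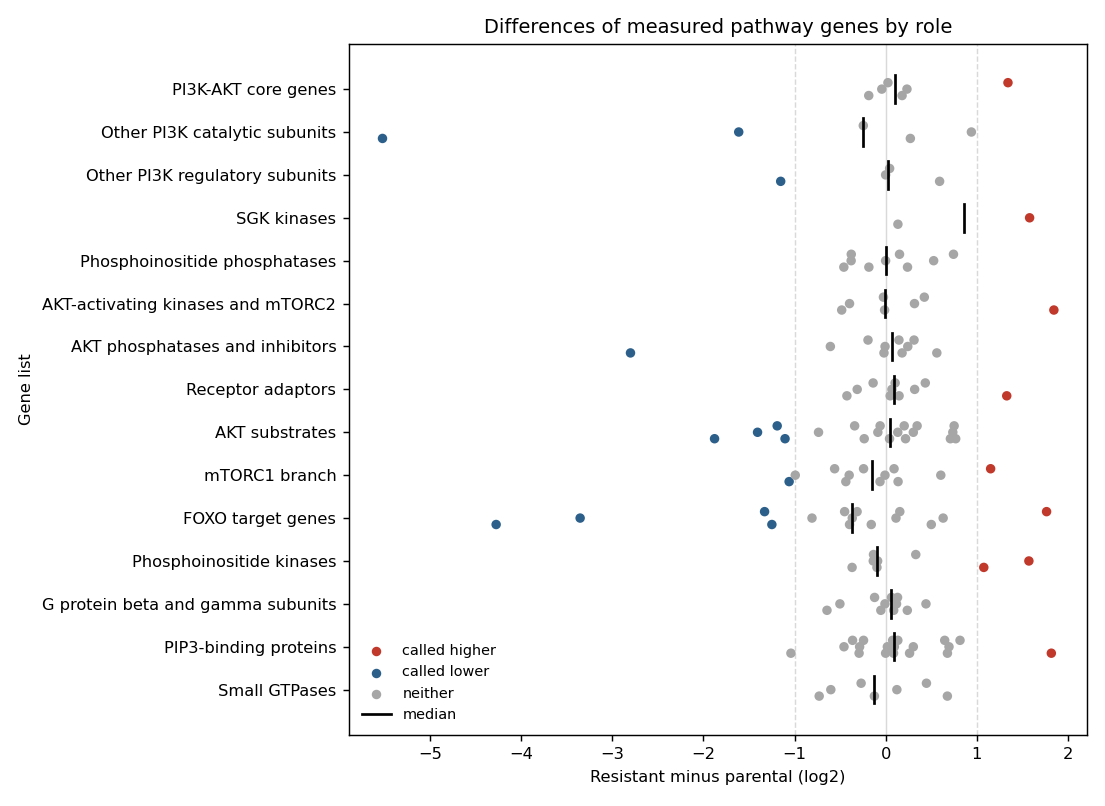
Resistant minus parental difference (log2, horizontal axis) of each measured gene, by list (vertical axis), with called genes in colour, the list median as a bar and dashed lines at -1 and 1. The list medians farthest from 0 are those of the SGK kinases (0.86) and the FOXO target genes (-0.37). The SGK median rests on 2 genes, of which SGK1 lies under the floor on both arrays. The leftmost points are PIK3C2G (-5.52), SESN3 (-4.28) and TXNIP (-3.35).

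Genes that supply or read the lipids of PI3K were added later as 4 lists with 45 measured genes, of which 3 were called higher and none lower. The 3 are 9.38% of the 32 that reached the floor, against 9.58% called higher over all such genes. PIP5K1B, which makes the PI3K substrate PIP2, was 6.79 on the resistant and 5.22 on the parental array, at least 2.00-fold higher against the floor. PIP4K2A, another phosphoinositide kinase gene, was 7.88 on the resistant and 6.81 on the parental array (1.08). TEC, a tyrosine kinase that binds PIP3, was 8.57 on the resistant and 6.75 on the parental array (1.82). Of 11 measured G protein beta and gamma genes, 5 reached the floor. None of these was called, against 18.7% called in either direction over all such genes. The largest difference was that of GNG5 (-0.64). Of 7 measured small GTPase genes, 6 reached the floor and none was called, against the same 18.7%. So few genes allow no result about either list. CDC42 (0.68) and RAC1 (0.45), whose products bind p110-beta, lay among neighbours with medians of 0.72 and 0.65.

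Subtracting the neighbours' median left 1451 of the 2096 genes called over all genes past 1 in the same direction. Of the 18 called pathway genes it left 13, which is near that share and no result about the lists. The 5 that no longer passed were FOXO1, TBC1D4, RHEB, RPS6 and CITED2. PIK3C2G, PIK3C3, MTOR, FOXO3, SESN3 and TXNIP were among those that did, as did the core gene PIK3CB. TSC1 (-1.02) and PFKFB2 (1.02), not called as measured, passed 1 in size after the subtraction. Shifts of the surrounding genes thus moved with some of these differences, and their part in them was not tested.

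**Figure D4:**
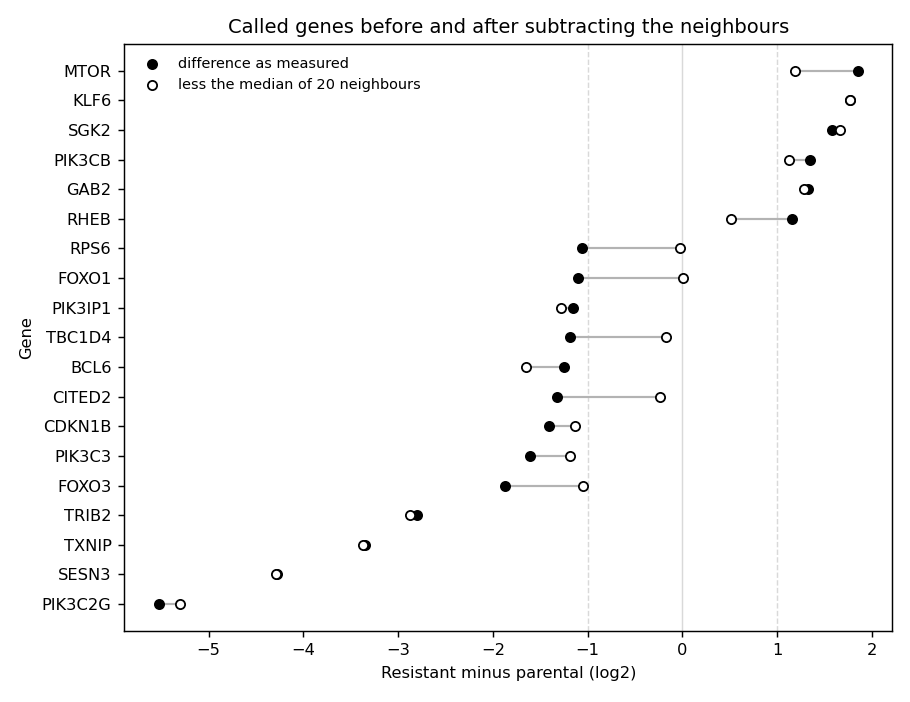
Resistant minus parental difference (log2, horizontal axis) of PIK3CB and the 18 called pathway genes (vertical axis) as measured (filled) and less the median of 20 neighbouring genes (open), with dashed lines at -1 and 1. FOXO1, TBC1D4, RPS6 and CITED2 move to near 0 and RHEB to 0.51, whereas PIK3CB stays past 1 at 1.12.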

How the data were processed

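The authors deposited 1 table of log2 values for 70523 rows on 2 Affymetrix Human Transcriptome Arrays, made with Affymetrix Expression Console per the submitters' processing notes. The program's version, its algorithm and normalization, the log base and the build of the rows were not given in the sources used here, and base 2 was assumed. Column medians were 4.76 on both arrays, and 693 resistant and 650 parental values exceeded 16, more than a 16-bit scanner can record, so folds hold on the deposited scale only.

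Rows were named through the platform annotation (23781 with 1 symbol) and updated through the NCBI gene table, and the highest-mean row per gene was kept; each of the 6 genes had 1 row. The floor, size rule and neighbour medians were computed over all genes in Python 3.11.15 with pandas 2.3.3. Only the size rule was checked on simulated arrays, with shifts planted on genes well above the floor and an assumed noise level. No shift of a chromosome stretch was simulated. Gene order came from GRCh38.p14.

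Genes named were the members, up to 4 called genes per list (else the one with the largest difference at or above the floor) and others chosen for their role; other names, such as PIK3R4, PHLPP1 and CDC42, were chosen after their values were seen. Members and lists were chosen with earlier results of these data known. With 2 arrays no likeness of pattern between genes was computed. Alternatives changed scaling, row choice, floor, threshold and local shift. Some genes of the pathway are not reported here.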

Additional observations from a re-analysis of the deposited data

How the results depend on the processing

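PIK3CB was called higher, and was the only core gene called, under median centring, quantile normalization, loess centring, the mean of a gene's rows, every floor tried, a 1.5-fold threshold and subtraction of chromosome or neighbour medians. Its difference lay between 1.12 and 1.38 under the alternatives of scaling, row choice and local shift. With a 4-fold threshold the number of core genes called was 0, where 4.33% of genes at or above the floor were called. The median difference of the core genes lay between 0.0009 (less neighbour medians) and 0.26 (mean in place of the median). Of the 92 pathway genes, 18 were called. The count was 11 with a floor at the 75th percentile, 31 with a 1.5-fold threshold and 4 with a 4-fold threshold. The 31 and the 4 are out of the 81 that reached the main floor. Over all such genes 37.3% passed at 1.5-fold and 4.33% at 4-fold. The pathway count was 14 less chromosome medians (4 higher, 10 lower) and 15 less neighbour medians (5 higher, 10 lower). Of all 11206 genes at or above the floor, less neighbour medians, 947 were at least 1 and 781 at most -1. The same 18 genes stayed past 1 under the 4 alternatives of scaling and row choice. Less the median of its 20 neighbours, FOXO1 turned to 0.0035, with the opposite sign. With 10 or 40 neighbours, chosen after seeing the data, PIK3CB was 1.14 or 1.16 above their median. No paired analysis was possible because each group has 1 array, and no array could be left out.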
